A study of Mus musculus with 6 samples.

Results

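Antigen presentation by the major histocompatibility complex (MHC) was followed in mouse brain through 9 genes, namely H2-K1, H2-D1, B2m, Tap1, Tap2, Tapbp, Cd74, H2-Aa and H2-Ab1. They were chosen by name, and every probe that the array annotation assigns to 1 of these symbols was taken, which gave 11 of the 24048 probes on the array (B2m and H2-Ab1 have 2 probes each). Brains came from male mice of the inbred strain BALB/c, 12 weeks old and on a normal diet. The treated group had drunk oil palm phenolics (OPP), a water-soluble extract, at 1500 ppm gallic acid equivalent for 6 weeks, while the control group had drunk distilled water (3 brains per group, 1 brain per array). Animals had been assigned to cages at random, with as many to a cage as to a group, and the methods leave out whether a cage held 1 group only, in which case cage and treatment cannot be told apart. According to the methods, outlying arrays had been discarded on the basis of clustering before the 3 per group were kept, which bears on the spread within groups. Expression was read on Illumina MouseRef-8 BeadChips, on which the brightness of the beads that carry a probe, its intensity, reports the amount of its transcript.

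MHC class I molecules consist of a heavy chain, such as those encoded by H2-K1 and H2-D1, and the light chain beta-2 microglobulin encoded by B2m, and they show peptides made inside the cell to cytotoxic T cells. The peptides are pumped into the endoplasmic reticulum by the transporter of Tap1 and Tap2 and are loaded with the help of tapasin, the product of Tapbp. Class II molecules, whose chains are encoded by H2-Aa and H2-Ab1, show peptides of engulfed material and are escorted by the invariant chain encoded by Cd74. In healthy brain class I genes are expressed at modest levels in several cell types, including neurons, endothelium and microglia, whereas class II genes are largely restricted to a few macrophages and dendritic cells at the borders of the brain. The H2 and Tap genes and Tapbp lie on mouse chromosome 17, inside or next to the MHC, while B2m and Cd74 lie on other chromosomes. In whole tissue, fewer cells of a type and less RNA per cell cannot be told apart.

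Promoter sequences, credited to RefSeq (GRCm38.p6), were searched for 6 of the 9 genes, with Cd74, Tap2 and H2-Ab1 left out. The 200 bases before the start site are shown for B2m and H2-D1, whose probes were bright in these brains, and for H2-K1, the class I heavy chain gene whose probe was not above background. H2-K1 had 2 annotated start sites, of which the one farthest downstream was used. Its window therefore lies inside the annotated gene (33996012 to 34000619), and the window before its other start was not searched. Capitals mark the motifs searched on both strands. They are the spelling GGGGATTCC of the kappa B site, the interferon regulatory factor motif AANNGAAA, the X2 core TGACG and the CCAAT box. Other spellings of the kappa B site were not searched and are not marked.
B2m, chr2:122147487-122147686, plus strand: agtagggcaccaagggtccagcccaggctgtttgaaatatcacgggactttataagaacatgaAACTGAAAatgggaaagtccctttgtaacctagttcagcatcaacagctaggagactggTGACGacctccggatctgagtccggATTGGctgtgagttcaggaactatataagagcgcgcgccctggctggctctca
H2-D1, chr17:35262894-35263093, plus strand: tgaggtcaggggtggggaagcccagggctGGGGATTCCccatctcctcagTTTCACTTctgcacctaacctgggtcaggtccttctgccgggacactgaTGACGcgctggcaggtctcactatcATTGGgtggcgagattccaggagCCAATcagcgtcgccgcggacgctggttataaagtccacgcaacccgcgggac
H2-K1, chr17:34000334-34000533, minus strand: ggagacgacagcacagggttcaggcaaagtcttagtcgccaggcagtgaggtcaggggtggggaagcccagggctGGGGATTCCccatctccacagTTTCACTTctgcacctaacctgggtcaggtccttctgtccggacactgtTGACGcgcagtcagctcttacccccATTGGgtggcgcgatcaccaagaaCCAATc

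The windows of H2-D1 and H2-K1 matched at 130 of 154 bases (84.4%) when 1 was shifted by 46 bases against the other, and both held the same 4 motifs in the same order. The kappa B letters stood in 0.155% of the 32851 promoter windows in the table, those of the interferon regulatory factor motif in 17%, the X2 core in 15.7% and the CCAAT box in 29.3%. The windows with the kappa B letters belonged to 50 genes, of which 4 carried an H2 symbol. The B2m window held an interferon regulatory factor motif, an X2 core and a CCAAT box, and the letters GGGGATTCC were not in it. Since no other spelling was searched, whether the B2m window holds a kappa B site was not tested. These matches describe the letters of the C57BL/6J reference genome, and BALB/c mice carry another haplotype of the H2 complex.

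The 6 arrays had 7442 to 7903 probes above background (detection level, 1 minus the detection p-value, over 0.99) and correlated at 0.954 to 0.987 on the log2 scale. Of all probes, 7611 passed the detection filter (detection level averaging over 0.99 in either group) and were tested with limma, which called 1 probe, for Hoxb5, at an adjusted p under 0.05. Control replicate 2 stood apart from the other brains in markers of granulocytes, whose mean log2 intensity (5 tested probes) was 8.08 to 8.29 in the OPP group and 9.04 to 12.08 in the controls, with the 12.08 in control replicate 2. That brain also had the lowest level of the choroid plexus marker Ttr (12.68 to 13.35 in the OPP group and 11.65 to 13.23 in the controls) and the highest mean of the red blood cell markers (11.11 to 12.24 in the OPP group and 11.22 to 12.67 in the controls), and it correlated with the other arrays at 0.954 to 0.974. Of the brain markers, Syt1 and Stmn2 of neurons, Aqp4 and Slc1a3 of astrocytes and Mbp, Mog and Mobp of oligodendrocytes were above background in all 6 brains, while the probes of Snap25, Gfap and Slc1a2 were so in 0. Mean log2 intensities of the tested markers were 12.24 to 12.40 in the OPP group and 12.21 to 12.38 in the controls for neurons, 10.98 to 11.45 in the OPP group and 11.30 to 11.81 in the controls for astrocytes, and 10.99 to 11.14 in the OPP group and 10.87 to 11.36 in the controls for oligodendrocytes. The median log2 fold change was 0.01 for the neuron, -0.25 for the astrocyte and -0.20 for the oligodendrocyte markers.

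Transcripts of the class I chains H2-D1 and B2m and of the transporter subunit Tap2 were detected in these brains. Most of the other probes of the 9 genes, including all those of the class II chains H2-Aa and H2-Ab1, stayed within background. Of the 9 genes, only H2-D1, B2m and Tap2 were tested for a difference between mice given OPP and controls, and none of them passed. Values above background made up 24 of the 66 measured with the 11 probes, and only the probes of H2-D1 and 1 of B2m were above background on all 6 arrays. Another 3 probes (Tap2, Tapbp and Cd74) were above background on some arrays and 6 on none. The filter passed 3 of the 11 probes (27.3%), against 31.6% of all probes on the array.

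**Figure D1:**
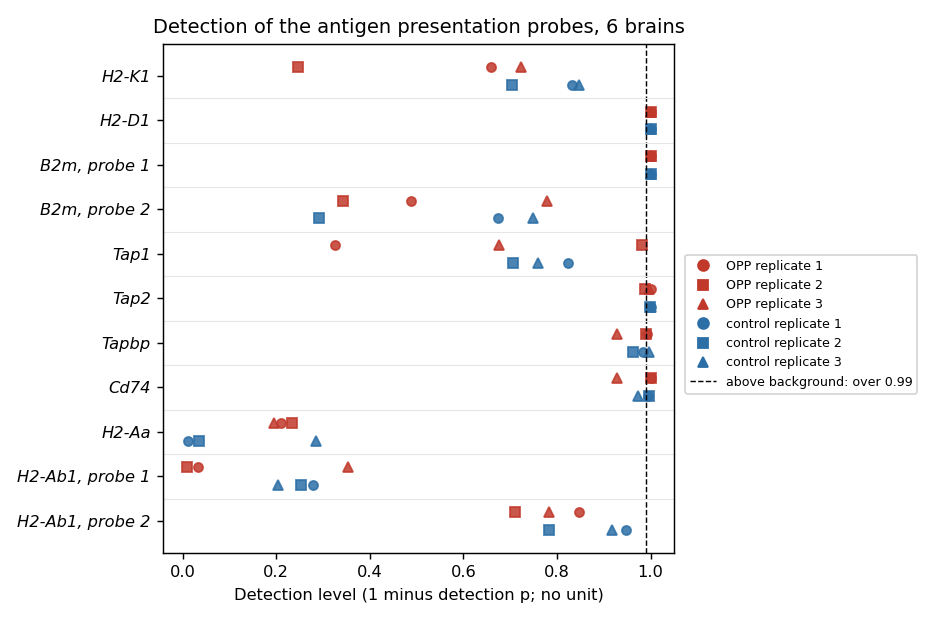
Detection level (horizontal axis, no unit) of each of the 11 probes (rows) in the brains of 3 mice given OPP (red) and 3 controls (blue), with 1 symbol per brain and a dashed line at 0.99. H2-D1 and the first B2m probe sit at 1 in all 6 brains, whereas the H2-Aa probe and the first H2-Ab1 probe lie below 0.4 in every brain.

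H2-D1, a classical class I heavy chain gene (GRCm38.p6, as for all coordinates here, chromosome 17, 35263094 to 35267497), had scaled intensities of 987, 648 and 507 in the OPP group, against 809, 1032 and 699 in the controls. The highest of the OPP brains lay above both lower controls, and the lowest 2 values of the 6 were OPP brains, so that the groups overlapped. The means were 714 ± 246 in the OPP group and 847 ± 169 in the controls (SD, n = 3 each). The log2 fold change was -0.28 (standard error 0.23, 95% interval -0.81 to 0.24), with an adjusted p of 0.984 from limma, and the exact two-sided permutation test over the 6 brains gave p = 0.4, where the smallest p that 3 against 3 allows is 0.1. On the fold scale the interval ran from 0.570 to 1.18 times the control level. The RefSeq gene lies among many class I genes of similar sequence, and whether the probe also binds their transcripts was not tested.

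B2m (chromosome 2, 122147687 to 122153082), which encodes the light chain shared by class I molecules, had scaled intensities of 2733, 2344 and 1659.8 in the OPP group, against 2488, 3170.4 and 2259 in the controls. OPP replicate 3 was the lowest and control replicate 2 the highest of the 6, and the groups overlapped. The means were 2246 ± 543 in the OPP group and 2639 ± 474 in the controls (SD, n = 3 each), a log2 difference of -0.25 (standard error 0.19, 95% interval -0.68 to 0.19) with an adjusted p of 0.984 from limma and an exact permutation p of 0.5. The second B2m probe was within background in all 6 brains, at 177 to 204 in the OPP group and 172 to 205 in the controls, so that only 1 of the 2 probes detected the gene. The name of the bright probe carries the accession of the B2m transcript and that of the dim probe carries neither an accession nor a gene ID.

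Tap2 (chromosome 17, 34204479 to 34216321), which encodes a subunit of the peptide transporter, had scaled intensities of 359, 283 and 317 in the OPP group, against 379, 346 and 389 in the controls. It was above background in 2 of 3 OPP brains and in 3 of 3 controls, and the groups overlapped only through OPP replicate 1, which lay above control replicate 2. The means were 320 ± 37.9 in the OPP group and 371 ± 22.3 in the controls (SD, n = 3 each), a log2 difference of -0.22 (standard error 0.12, 95% interval -0.48 to 0.04). The unadjusted p was 0.0883 and the adjusted p 0.984 from limma, and the exact permutation p was 0.2. The scaled intensities include background, which makes fold changes of dim probes smaller, and with the background-subtracted values of the authors the log2 fold change of Tap2 was -0.50 (standard error 0.24, unadjusted p = 0.0653 from limma).

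**Figure D2:**
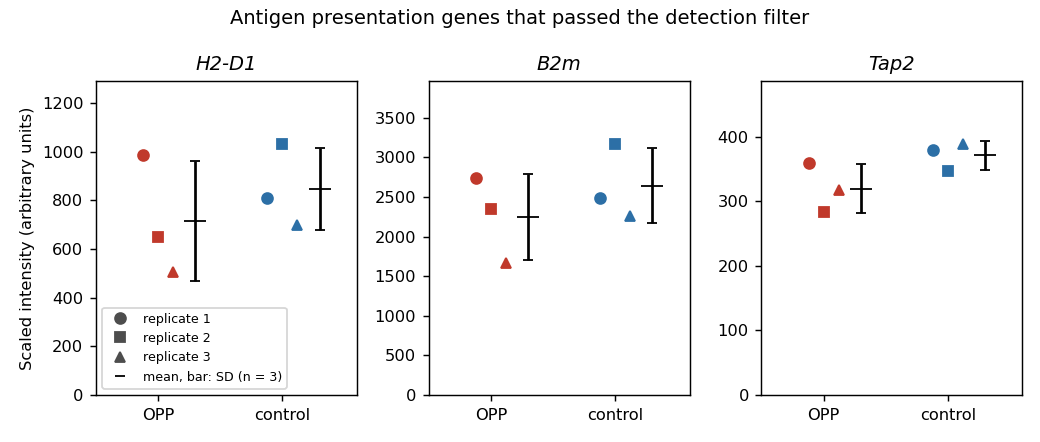
Scaled intensity (vertical axes, arbitrary units, from 0) of H2-D1, B2m and Tap2 in each brain, with the OPP group in red left of the controls in blue, and the mean and SD of each group (n = 3) as a black bar. The groups overlap in every panel, with the mean of the OPP group below that of the controls.

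The log2 fold changes of the 3 tested probes were all below 0, as were those of 52.3% of all tested probes, and their median was -0.25, against -0.01 over all tested probes. Of the 3 probes 0 were called at an adjusted p under 0.05 in limma, where the share over all tested probes was 0.0131%, and 0 at an unadjusted p under 0.05, where it was 4.1%. Groups that did not overlap were found in 0 of the 3, against 9.64% of all tested probes. The size of the differences rested on single brains. Without OPP replicate 3 the log2 fold change was -0.06 for H2-D1 and -0.05 for B2m, without control replicate 2 it was -0.13 for H2-D1 and -0.11 for B2m, and without OPP replicate 1 it was -0.54 for H2-D1 and -0.41 for B2m. Tap2 stood at -0.14 when OPP replicate 2 was left out and at -0.31 when OPP replicate 1 was. The number of arrays limits what could be seen, since the lower ends of the 3 intervals reach from 0.570 to 0.715 times the control level.

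Among the probes that did not pass the filter, Cd74 and Tapbp came closest to it. Cd74, which encodes the invariant chain of class II molecules (chromosome 18, 60803849 to 60812652), had scaled intensities of 317, 308 and 233 in the OPP group, against 289, 308 and 263 in the controls, and it was above background in 2 brains of each group. Its mean detection level was 0.976 in the OPP group and 0.988 in the controls, just under the limit, while that of Tap2, just over it, was 0.995 in the OPP group and 1.00 in the controls. Cd74 thus showed 4 brains a little over background, with the lowest value of each group in its replicate 3.

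Tapbp, which encodes tapasin (chromosome 17, 33919478 to 33929290), had scaled intensities of 277, 286 and 233 in the OPP group, against 271, 259 and 298 in the controls. It was above background in 2 OPP brains and 1 control, and the groups overlapped. Its mean detection level was 0.970 in the OPP group and 0.981 in the controls.

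The probes of the classical heavy chain H2-K1, of the transporter subunit Tap1 and of the class II chains were above background in 0 of 6 brains. H2-K1 had 192, 170.2 and 198 in the OPP group, against 209.5, 201 and 219 in the controls, so that every OPP brain lay below every control, but at intensities within background for which no fold is given. Tap1 ranged from 168 to 274 in the OPP group and from 201 to 208 in the controls. The 274, in OPP replicate 2, was the value nearest the limit among these probes, with a detection level of 0.982.

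For the class II alpha chain gene H2-Aa, intensities ranged from 159 to 169 in the OPP group and from 133 to 167 in the controls. The 2 probes of the beta chain gene H2-Ab1 ranged from 132 to 171 and from 205 to 216 in the OPP group, and from 161 to 169 and from 211 to 241 in the controls. Transcripts of H2-Aa and H2-Ab1 were thus not detectable with these probes in either group. The probe of another class II chain gene, H2-Eb1, was above background in 1 OPP brain and 0 controls and did not pass the filter. Whether the probes of H2-K1, H2-Aa and H2-Ab1, which differ between strains, match the BALB/c alleles was not tested, since the probe sequences were not used here.

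The 2 class I chains varied together from brain to brain, and they did so within both groups. Expressed as the difference from the mean over the 6 brains on the log2 scale, B2m stood at 0.19, -0.03 and -0.53 in the OPP group and at 0.05, 0.40 and -0.09 in the controls. H2-D1 stood at 0.38, -0.23 and -0.58 in the OPP group and at 0.09, 0.45 and -0.12 in the controls. Both were thus high in OPP replicate 1 and control replicate 2 and lowest in OPP replicate 3. Tap2 had another order, at 0.06, -0.28 and -0.12 in the OPP group and at 0.14, 0.01 and 0.18 in the controls, with OPP replicate 2 the lowest.

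Over the 6 brains B2m and H2-D1 correlated with Pearson's r = 0.956 (exact permutation p = 0.00278, adjusted p = 0.025 over 9 gene pairs) and Spearman's rho = 0.943 (exact permutation p = 0.0167, adjusted p = 0.15). The r was 0.948 after the group means were removed, 0.938 without control replicate 2 and 0.939 without the 2 brains farthest from the median of B2m. B2m and Tap2 had r = 0.30 (exact permutation p = 0.574, adjusted p = 0.574) and rho = 0.09 (exact permutation p = 0.919, adjusted p = 0.919), with -0.02 within the groups and 0.13 without the 2 farthest brains. H2-D1 and Tap2 had r = 0.46 (exact permutation p = 0.376, adjusted p = 0.423) and rho = 0.37 (exact permutation p = 0.497, adjusted p = 0.559), with 0.27 within the groups and 0.45 without the 2 farthest brains. The correlation of the class I chains with each other was thus the only one of these 3 that passed, and it passed by r and not by rho. How many of all tested probes correlate as closely with B2m or H2-D1 was not counted. Whether the shared order is particular to class I genes was therefore not tested.

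Of the 3 other class I and class I-like genes tested, H2-Q2 and H2-T23 correlated more closely with H2-D1 by Pearson's r than Fcgrt did. H2-Q2, a nonclassical class I gene, had scaled intensities of 1375, 761 and 575 in the OPP group, against 839, 1059 and 903 in the controls. H2-T23, which encodes the nonclassical class I molecule Qa-1, had 403, 285 and 294 in the OPP group, against 332, 412 and 281 in the controls, and was above background in 3 OPP brains and 2 controls. Both were highest in OPP replicate 1 or control replicate 2, as H2-D1 was. The correlation with H2-D1 was r = 0.913 for H2-Q2 (exact permutation p = 0.0153, adjusted p = 0.0688; rho = 0.886, exact permutation p = 0.0333, adjusted p = 0.15) and r = 0.877 for H2-T23 (exact permutation p = 0.0278, adjusted p = 0.0833; rho = 0.771, exact permutation p = 0.103, adjusted p = 0.154). Neither passed after adjustment. Without the 2 brains farthest from the median of H2-D1 the r was 0.890 for H2-Q2 and 0.979 for H2-T23, and within the groups it was 0.933 for H2-Q2 and 0.905 for H2-T23. With B2m the r was 0.829 for H2-Q2 and 0.766 for H2-T23 (exact permutation p = 0.0583 and 0.0597, adjusted p = 0.107 each). Fcgrt, the neonatal Fc receptor gene, had 1069.7, 993 and 845 in the OPP group, against 1276, 1039 and 1029 in the controls, and was highest in control replicate 1. Its r was 0.629 with H2-D1 (exact permutation p = 0.157, adjusted p = 0.202) and 0.619 with B2m (exact permutation p = 0.156, adjusted p = 0.202), with 0.533 for H2-D1 and 0.501 for B2m within the groups. The rho of Fcgrt with H2-D1 was 0.771 (exact permutation p = 0.103, adjusted p = 0.154), the same as that of H2-T23. By rank order against H2-D1 the 2 genes thus stood equal. With B2m the rho was 0.829 for H2-T23 (exact permutation p = 0.0583, adjusted p = 0.154) and 0.714 for Fcgrt (exact permutation p = 0.136, adjusted p = 0.175). Whether the probes of these similar class I genes bind the same transcripts was not tested.

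**Figure D3:**
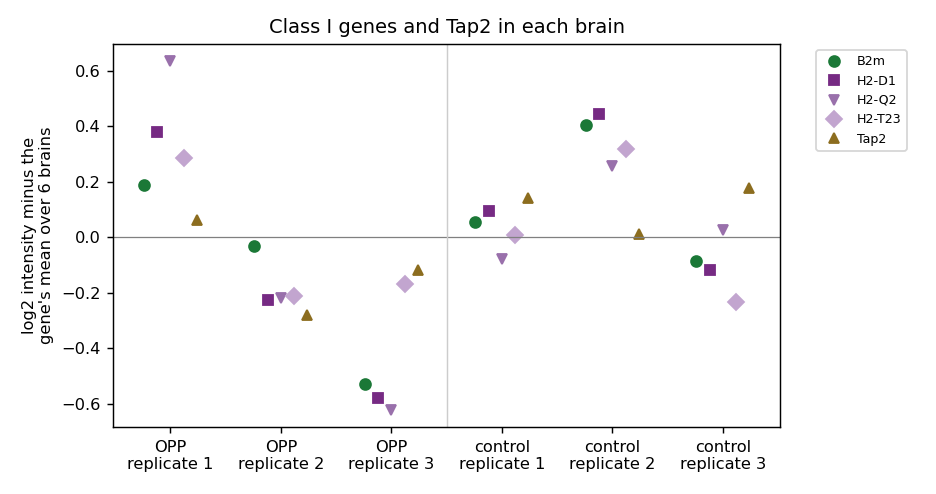
Log2 intensity of B2m, H2-D1, H2-Q2, H2-T23 and Tap2 in each brain minus the mean of the gene over the 6 brains (vertical axis, log2 units), with the 3 OPP brains left of the 3 controls. The 4 class I genes lie above 0 in OPP replicate 1 and control replicate 2 and below 0 in OPP replicates 2 and 3.

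The spread within a group was wide for the class I chains. The highest OPP brain exceeded the lowest by 1.95-fold for H2-D1 and by 1.65-fold for B2m, and among the controls by 1.48-fold for H2-D1 and 1.40-fold for B2m. The means of the groups differed by less, with the controls 1.22-fold over the OPP group for H2-D1 and 1.19-fold for B2m. The residual SD within groups was 0.40 on the log2 scale for H2-D1, which 2.59% of the tested probes exceeded, and 0.32 for B2m, which 5.91% exceeded, while the median over all tested probes was 0.14. Tap2 was near that median, at 0.14, with 54.0% of the tested probes above it. H2-Q2 had a residual SD of 0.47, which 1.59% of the tested probes exceeded, and H2-T23 one of 0.28, which 9.32% exceeded.

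Markers of other cells were set beside this order of brains. The mean of the granulocyte markers was highest in control replicate 2 and lowest in OPP replicate 3, as were both class I chains. Many granulocyte values of the OPP brains were within background, so the order among these brains says little. The 5 tested probes, of S100a8, S100a9, Ltf, Camp and Lcn2, were lower in the OPP group at an unadjusted p under 0.05 in limma (4.1% over all tested probes in either direction). After adjustment 0 passed. Their log2 fold changes were -2.97 to -1.66. Without control replicate 2 they were -1.90 to -0.75, and S100a8 and Ltf passed adjustment at 0.00542 and 0.0122 in limma. Ltf was above background in 0 OPP brains and 3 controls, S100a9 and Camp in 1 OPP brain and 3 controls, and Lcn2 in 2 OPP brains and 3 controls. For these probes the control values alone were enough for the detection filter. The mean log2 intensity of the 5 probes was 12.08 in control replicate 2 and 9.04 and 9.34 in the other controls. In OPP replicate 1, where H2-D1 and H2-Q2 were also high, it was 8.14, within the 8.08 to 8.29 of the OPP group. Of the 6 tested microglia probes 0 were called at an unadjusted p under 0.05 in either direction, and their mean was 8.59 to 8.74 in the OPP group and 8.52 to 8.85 in the controls. The highest of these means was in control replicate 2 and the highest of the OPP group in OPP replicate 1. The lowest was in control replicate 1 (8.52), whereas the class I chains were lowest in OPP replicate 3 (8.59 for the microglia markers). None of the markers of border-associated macrophages (5 probes), dendritic cells (7), B cells (6) or T cells (6) passed the detection filter. The endothelial markers averaged 9.87 to 9.95 in the OPP group and 9.93 to 10.31 in the controls. Esam, Slc2a1 and Vwf were lower in the OPP group at an unadjusted p under 0.05 in limma, against 4.1% of all tested probes in either direction. After adjustment 0 of 6 probes were called. The groups overlapped for Slc2a1 and Vwf and did not for Esam, against 9.64% of all tested probes without overlap. The part of these cell types in the values of the class I genes was not tested.

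The genes whose values over the 6 brains were most like the mean of the tested class I chains (H2-D1 and B2m) were Ptpmt1, a mitochondrial phosphatase gene, Nupr1, a stress-induced transcriptional regulator gene, Dot1l, a histone H3 methyltransferase gene, Taldo1, a gene of the pentose phosphate pathway, and Med22, a Mediator subunit gene. Their Pearson's r was 0.988, 0.988, 0.987, 0.983 and 0.978 over 6 brains, and Spearman's rho was 1 for each. Nupr1 had scaled intensities of 422, 367 and 294 in the OPP group, against 408, 472 and 376 in the controls. They were picked as the highest of all tested probes, so that such values describe the choice. For the class II chains no probe was tested and no such genes were sought.

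No other gene of peptide loading passed the test. Of 9 genes of class I loading, members included, 2 were tested, and the other 1, Pdia3, which encodes a protein of the loading complex, had 1583, 2101 and 1552 in the OPP group, against 1669, 1789.9 and 1823 in the controls (log2 fold change -0.03, standard error 0.13). The groups of Pdia3 overlapped, and the highest value of all was in OPP replicate 2. Of the 5 genes of the immunoproteasome and its activator, 3 were tested with 5 probes, and 0 passed an unadjusted p under 0.05 in either direction. Their log2 fold changes ran from -0.10 (standard error 0.13) for a probe of Psme1 to 0.12 (standard error 0.16) for Psme2, which both encode subunits of the proteasome activator PA28. Psmb8 and Psmb9, the inducible proteasome subunits encoded beside Tap1 and Tap2, were above background in 0 of 6 brains. Psmb10 of the same list was above background in all 6 brains with both of its probes. Their log2 fold changes were -0.07 (standard error 0.12) and 0.01 (standard error 0.11).

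Among the other class I and class I-like genes 16 were on the array and 3 were tested, and 14 of their 19 probes were above background in 0 brains. The log2 fold changes ran from -0.20 (standard error 0.13) for Fcgrt, through -0.14 (standard error 0.27) for H2-Q2, to -0.06 (standard error 0.17) for H2-T23 (0.08 without control replicate 2), and 0 passed an unadjusted p under 0.05. Of the 11 other genes of class II and antigen processing 3 were tested, and 0 of their 4 probes passed. Ifi30, which encodes a thiol reductase of the endosomes, had 312, 350 and 290.4 in the OPP group, against 359.9, 437 and 335 in the controls, and its log2 fold change was -0.25 (standard error 0.13). The groups overlapped for Ifi30, whose unadjusted p was 0.0884. The upper end of the list was a probe of the cathepsin B gene Ctsb at 0.07 (standard error 0.16).

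Nor did any regulator of the MHC genes pass the test. Of 11 on the array 5 were tested, and their log2 fold changes ran from -0.14 (standard error 0.10) for Rfxank, a subunit gene of the RFX complex that binds MHC promoters, to 0.19 (standard error 0.12) for Nfyb, a subunit gene of the CCAAT-binding factor NF-Y, with 0 at an unadjusted p under 0.05. Of the 17 probes of these regulators 11 were above background in 0 of 6 brains, and that of Ciita, the class II transactivator gene, was 1 of them.

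Class I genes are induced by interferon, and none of the other interferon response genes passed the adjusted test. Of 36 on the array 11 were tested, and at an unadjusted p under 0.05 the OPP group was higher for 2 of them and lower for 2 (4.1% over all tested probes in either direction), with 0 left after adjustment (adjusted p = 0.984 each from limma). The groups did not overlap for 5 of the 11, against 9.64% of all tested probes. Among these 5 was Irgm1, with 321, 342 and 306 in the OPP group, against 286, 284 and 268 in the controls. Irgm1 was above background in 3 OPP brains and 1 control, so that its OPP values alone were enough for the detection filter. Ly6e, which encodes a membrane protein induced by interferon, had 1982, 1576 and 1734 in the OPP group, against 1319, 1539 and 1465 in the controls (log2 fold change 0.29, standard error 0.12). Ifit2, which encodes an antiviral RNA-binding protein, had 374, 428 and 342 in the OPP group, against 336, 298 and 308 in the controls (0.27, standard error 0.11; unadjusted p = 0.0876 without control replicate 2). For both genes every OPP brain lay above every control.

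Ifitm3, which encodes an inhibitor of virus entry, had 469, 462 and 367 in the OPP group, against 496, 829 and 511 in the controls (log2 fold change -0.47, standard error 0.20), and the 829 was in control replicate 2, without which the log2 fold change was -0.23 and the unadjusted p 0.115. Gbp3, a guanylate-binding protein gene, had 302, 283 and 280.4 in the OPP group, against 345, 324 and 339 in the controls (-0.22, standard error 0.09), and was above background in 2 OPP brains and 3 controls. For these genes every OPP brain lay below every control. The ends of the list were Ifitm1 at -0.51 (standard error 0.28; -0.18 without control replicate 2) and Ly6e, and its median was -0.02, against -0.01 over all tested probes.

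**Figure D4:**
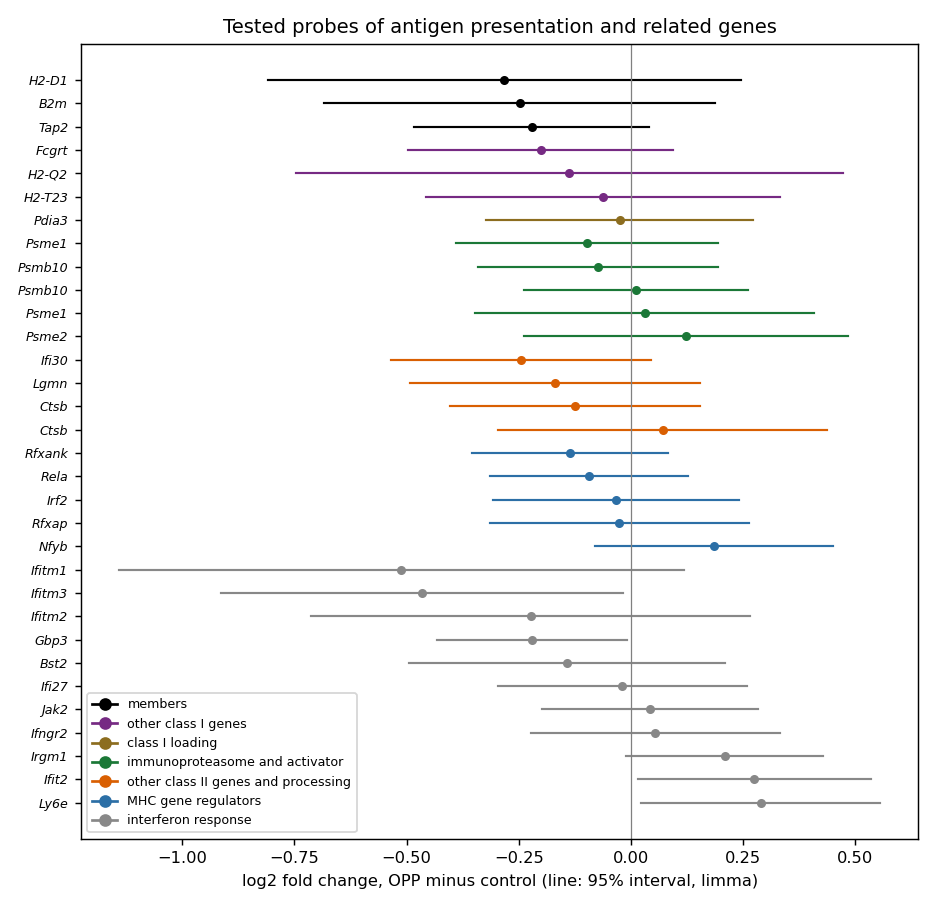
Log2 fold change, OPP minus control (horizontal axis), of the 3 tested probes of the 9 genes (black) and of the tested probes of related lists (colours), with 95% intervals from limma. The intervals of H2-D1, B2m and Tap2 include 0, and those of Ifitm3, Gbp3, Ifit2 and Ly6e exclude it before adjustment.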

How the data were processed

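Total RNA of 6 brains was hybridized to Illumina MouseRef-8 Version 1 arrays, 1 brain each. The authors summarized beads per probe in BeadStudio (1.5.1.3 per the submitters' processing notes) and deposited non-normalized intensity values, with background included, and a detection p-value for each probe and array. They also deposited a table of normalized, background-subtracted intensity values, which served as an alternative. Probes were named through the platform annotation with RefSeq symbols, which gave 19398 probes with 1 symbol, 4650 with none and 0 with several. Intensities were scaled to the mean of the control arrays on 4343 rank-invariant probes (factors 0.879 to 1.04), floored at 10 and log2-transformed. The probes whose detection level averaged over 0.99 in either group were compared in limma 3.58.1 (R 4.3.3) and adjusted by Benjamini-Hochberg over all 7611. limma took the place of the Illumina Custom error model of the methods, which was not run. The procedure was tested on simulated data. Groups and replicate numbers come from the labels. The replicate numbers did not pair the brains. Alternatives were other scalings, background corrections, filters, array weights, a replicate block, an equal-variance t-test (which the methods apply to behaviour and qRT-PCR, not to the arrays) and leaving out each array. All member probes are named, and of related lists the genes with an unadjusted p under 0.05 or at the ends of the list. H2-Q2, H2-Eb1, Psmb8, Psmb9, Psmb10, Irgm1, Ciita and the brain, choroid plexus and red blood cell markers were named after their values were seen. The members and lists were chosen with earlier results of these data known.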

Additional observations from a re-analysis of the deposited data

How the results depend on the processing

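Of the probes of the 9 genes, 0 were called at an adjusted p under 0.05 in any of 15 alternatives, and the lowest adjusted p of a member was 0.418, for Tap2 with array weights in limma. The log2 fold changes of the 3 probes tested stayed below 0 in every alternative that tested them, from -0.41 to -0.05 for B2m and from -0.54 to -0.06 for H2-D1 (15 alternatives each) and from -0.50 to -0.14 for Tap2 (14). Probes that only an alternative let in lay on both sides of 0, with Cd74 at 0.13 and Tapbp at 0.03 without OPP replicate 3, Cd74 at -0.07 without control replicate 3, Tapbp at -0.10 without control replicate 2, and, without a filter on detection, 9 of 11 probes below 0 and H2-Aa (0.13) and Tap1 (0.02) above. The median over H2-D1, B2m and Tap2 was -0.41 to -0.06 when 1 array was left out, with -0.41 without OPP replicate 1 and -0.06 without OPP replicate 3, and that over all members then tested (3 to 5 probes) was -0.41 to -0.05. At an unadjusted p under 0.05, Tap2 passed with array weights, and H2-D1 and Tap2 passed without OPP replicate 1. Over all tested probes the number called was 1, and it was 2 with the authors' values, 2 without a filter on detection, 0 with only probes above background on all 6 arrays (260 at an unadjusted p under 0.05), 3 with array weights, 0 with an equal-variance t-test after Benjamini-Hochberg (356 before it), a test the methods use for behaviour and qRT-PCR and not for the arrays, and 1 to 7 when 1 array was left out, with the 7 without control replicate 2. With the replicate block it was 2, while the replicate numbers did not pair the brains (correlations of deviations -0.27, 0.05 and 0.17). Of the probes at an unadjusted p under 0.05, 40.4% were higher in the OPP group (126 higher and 186 lower), against 67.4% without scaling, which put the median of all tested probes at 0.06, 52.3% with quantile normalization and 50.6% with normexp background correction. The cause was not tested. Array weights gave 758 such probes and leaving out control replicate 2 gave 821, against 312. A chip block was not run, since the headers name no chip. Intensities near background limit what the dim probes can show.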
